A study of Mus musculus with 5 samples.

Results

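Histone protein genes were followed in nuclear RNA of the mouse retina, in nuclei captured by a glial tag and in nuclei of the whole tissue. The members were the rows whose gene symbol begins with Hist1h to Hist4h, H1f, H2af, H3f or H2bf, which gave 62 of the 16422 genes tested. Of these, 49 carry a Hist symbol and lie in or are named for the replication-dependent histone loci (here called cluster genes), and 13 carry a variant symbol. The choice rests on the symbols alone, though it was made with earlier results of these data known. RefSeq lists 94 mouse genes under such symbols or synonyms, and the 32 others are not analysed here. All 62 rows had passed the authors' filter on low raw values, 48 of them in both fractions and 14 (13 cluster genes and H2afb1) in 1 fraction only.

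All mice carried the same alleles, Aldhl1l-Cre/Ert2+ and NuTRAP+ as the labels spell them, and had received tamoxifen. NuTRAP is a Cre-dependent reporter that tags the nuclear envelope with biotin, and the recombinase was driven by the promoter of Aldh1l1, a glial folate enzyme gene. Each sample was 2 retinae of a single animal. Input was a share of all nuclei kept before capture (animals 40 and 55, n = 2), and Positive was the streptavidin-captured nuclei (animals 12, 40 and 55, n = 3), named as Müller glia in the design text, which gives 3 samples a fraction. Input of animal 12 was not analysed here, Input still holds the tagged nuclei, and no age is given. The protocol opens by naming brain as the tissue, whereas the source and the homogenised tissue are retina.

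Histone proteins package DNA. The core histones H2A, H2B, H3 and H4 form the nucleosome, and the linker histone H1 binds the DNA between nucleosomes. Cluster genes supply histones during DNA replication from short transcripts, mostly without introns, that end in a conserved stem-loop bound by Slbp in place of a poly(A) tail. Variant genes lie outside the clusters, are transcribed through the whole cell cycle into polyadenylated mRNA and supply replacement histones in cells that no longer divide, such as mature retinal neurons and resting Müller glia. Some cluster genes also give longer polyadenylated transcripts in non-dividing cells. Rods of the mouse are known for inverted nuclei with condensed central chromatin, in which the linker histone H1c takes part.

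The stem-loop was more frequent among cluster genes than among variant genes. Its consensus was found in an annotated GENCODE transcript (GRCm38) of 34 of the 49 cluster genes and of 1 of the 13 variant genes, H2afx. No match says only that these letters are not in the annotated transcript, which for many cluster genes covers little more than the coding part. Hist2h2be, Hist1h2bq and Hist1h2bc had no match in longer transcripts of 2620, 1254 and 1156 bases. The stem-loops below belong to genes whose values are described further on. Capitals mark the 16 bases of the stem and loop, and 5 bases are given on either side, 5′ to 3′ along the mRNA.
Hist1h1c: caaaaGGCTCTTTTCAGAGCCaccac
Hist4h4: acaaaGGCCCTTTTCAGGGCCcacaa
Hist2h4: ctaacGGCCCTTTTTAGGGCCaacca
Hist1h4j: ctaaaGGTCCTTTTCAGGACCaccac
H2afx: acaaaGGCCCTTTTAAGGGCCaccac
The 16 bases of Hist1h1c were shared by 22 cluster genes of all but the H4 family, and those of Hist4h4 by 4 H4 genes. The annotated transcript ran on for 2445 bases after the stem-loop in Hist4h4, for 1257 in Hist2h4, for 840 in Hist1h1c and for 822 in H2afx.

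Positive nuclei were compared with Input nuclei to ask which transcripts are relatively more abundant where the tag was captured. The authors' values are on a log2 scale relative to an Input level of each gene. Neither absolute levels nor sequencing depth can be read from them, so levels are not compared between genes. In such bulk fractions fewer nuclei of a type and less RNA per nucleus cannot be told apart. No histone gene reached an adjusted p under 0.05 in limma fitted to the whole table, and neither did any other gene, so 0% of the genes tested were called. The lowest adjusted p of a histone gene was 0.331. With the animal as a random block 11 genes were called over the whole table, 4 higher and 7 lower, and none of them was a histone gene. At an unadjusted p under 0.05 there were 4 histone genes, Hist4h4 higher and Hist2h4, Hist1h2af and Hist1h1a lower, against 6.45% of all genes higher and 7.76% lower. The number of histone genes at that p was 6 with the fixed block, 8 with the random block and 2 after quantile normalization. Over all 16422 genes the same fits gave 2857, 4305 and 1264, against 2334 in the main fit. Leaving out Positive 12, 40 or 55 in turn gave 6, 5 and 7 histone genes, against 1678, 1446 and 3188 of all genes. After quantile normalization the split over all genes at that p was 709 higher and 555 lower, against 1060 and 1274 without it.

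Variant genes lay mostly above the Input level and cluster genes mostly below it. The log2 fold change was positive in 12 of the 13 variant genes, whose median was 0.13. Of the 49 cluster genes 33 had a negative one, with a median of -0.10. Of all 16422 genes tested 8706 were negative and 7716 positive, with a median of -0.017. Relative to the Input mean, the cluster median minus the variant median was -0.20 in Positive 12, -0.24 in Positive 40 and -0.25 in Positive 55. Within animals it was -0.29 in animal 40 and -0.20 in animal 55. The variant median stayed above the cluster median in each Positive library, but the libraries share the same Input values, and no test was made of this score over chosen genes.

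The sign of the cluster median rested on Input 40. Input 40 lay above Input 55 in 38 of the 49 cluster genes (77.6%), against 43.2% of all genes and 8 of the 13 variant genes. Without Input 40 the cluster median was 0.030 with 20 of 49 negative, and without Input 55 it was -0.24 with 38 of 49 negative. Without Positive 55 it was -0.0062 with 25 of 49 negative. The variant median was 0.14 without Input 40, 0.13 without Input 55 and 0.19 without Positive 55, and 11 to 13 of the 13 were positive when any library was left out. The difference of the medians was -0.11 without Input 40 and -0.37 without Input 55.

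Fractions separated upward, with each Positive value over both Input values, in 5 histone genes, or 2 of 13 variant genes (H2afz and H2afj) and 3 of 49 cluster genes (Hist1h1c, Hist4h4 and Hist1h3a). The share over all genes was 16.7%. They lay below both in 4 cluster genes (Hist1h1a, Hist1h2af, Hist1h2bq and Hist2h4) and in no variant gene, against 21.8% of all genes. The counts among cluster genes (3 and 4 of 49) were thus below those shares, and this was not tested. In the other 53 histone genes the fractions overlapped.

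**Figure D1:**
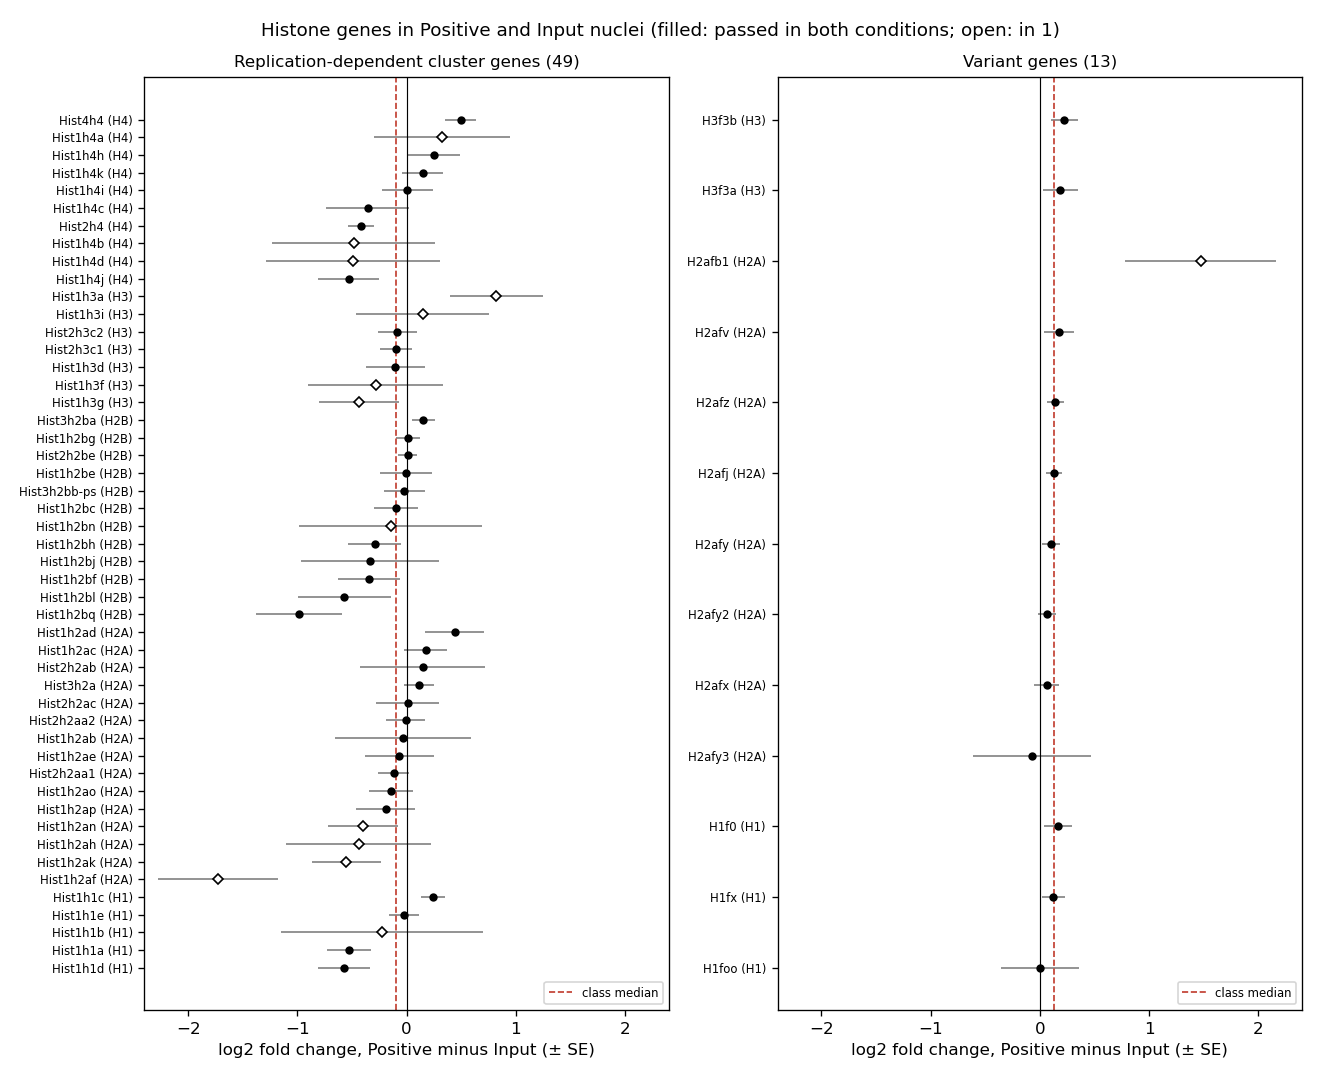
Log2 fold change of Positive minus Input nuclei (x axis, points with limma's SE as bars) for the 49 cluster genes (left) and the 13 variant genes (right), grouped by histone family, with the class median as a dashed line. Open diamonds are genes that had passed the filter in 1 fraction only. The variant genes other than H2afb1, H1foo and H2afy3 lie between 0.063 and 0.22, while cluster genes spread from -1.73 to 0.82 around -0.10.

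The variant H3.3 is the replacement form of H3 that is laid down outside replication, and its 2 genes encode the same protein. H3f3a (Entrez gene 15078, mm10 chr1:180802568-180813603) had log2 values of 0.42, 0.36 and -0.0050 in Positive 12, 40 and 55, and 0.14 and 0 in Input 40 and 55. Its log2 fold change was 0.19 (SE 0.16, limma adjusted p = 0.579). H3f3b (Entrez gene 15081, chr11:116021961-116024504) had 0.37, 0.39 and 0.085 in Positive 12, 40 and 55, and 0.12 and 0 in Input 40 and 55. Its log2 fold change was 0.22 (SE 0.13, limma adjusted p = 0.436). In both genes Positive 12 and Positive 40 lay above both Input libraries, and Positive 55 lay below Input 40. After quantile normalization H3f3a was 0.016 and H3f3b 0.063. H3f3a was 0.11 without Positive 12, 0.32 without Positive 55 and 0.12 without Input 55.

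H2A.Z, which marks nucleosomes beside active promoters, is encoded by H2afz and H2afv. H2afz (Entrez gene 51788, chr3:137864599-137866922) had 0.20, 0.14 and 0.099 in Positive 12, 40 and 55, and 0 and 0.0037 in the Input libraries, with a log2 fold change of 0.14 (SE 0.074, limma adjusted p = 0.410). Its Input libraries were among the closest of the table, since only 1.63% of genes had a smaller gap, and every Positive library lay above them. H2afv had 0.28, 0.42 and 0.054 in Positive and 0.15 and 0 in Input. It differed by 0.18 on the log2 scale (SE 0.14), and Positive 55 lay between the Input values. H2afz shared 35.4% of its 50-base stretches with transcripts of other annotated genes, so its reads may have been split, whereas H2afv shared 0%. After quantile normalization H2afz was 0.073 and H2afv 0.0080. H2afv was 0.092 without Positive 40, 0.28 without Positive 55 and 0.11 without Input 55.

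H2afj, an H2A variant known to build up in senescent cells, had 0.12, 0.17 and 0.070 in Positive 12, 40 and 55, and 0 and -0.012 in Input, with a log2 fold change of 0.13 (SE 0.074, limma adjusted p = 0.445). All Positive values lay above both Input values. H2afx, whose protein is phosphorylated at DNA breaks and whose mRNA carries the stem-loop printed above, differed by 0.063 on the log2 scale (SE 0.11). Its Positive values of 0.087, -0.17 and 0.037 surrounded its Input values of -0.15 and 0. The macroH2A genes H2afy and H2afy2, whose proteins carry a large extra domain and are found on silent chromatin such as the inactive X, had log2 fold changes of 0.10 (SE 0.081) and 0.068 (SE 0.082). Positive 55 lay below Input 55 in H2afy, and Input 40 lay between the Positive values of H2afy2. H2afy was 0.048 without Input 40 and 0.15 without Input 55 or after quantile normalization. The H2afy2 row overlaps that of Aifm2, and reads of the pair cannot be told apart unless strand was used.

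Of the linker variants, H1f0 encodes H1.0, the linker histone that accumulates in cells that have left the cycle. It had 0.049, 0.40 and 0.16 in Positive 12, 40 and 55, and 0 and 0.070 in Input, and differed by 0.17 (SE 0.13, limma adjusted p = 0.543). H1fx had 0.20, 0.11 and -0.062 in Positive and 0 and -0.081 in Input, and differed by 0.12 (SE 0.11). In both genes Positive values lay between the Input values in 1 library, which was Positive 12 in H1f0 and Positive 55 in H1fx. H1f0 was 0.069 without Positive 40 and 0.083 after quantile normalization, and H1fx was 0.065 without Positive 12 and 0.20 without Positive 55.

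**Figure D2:**
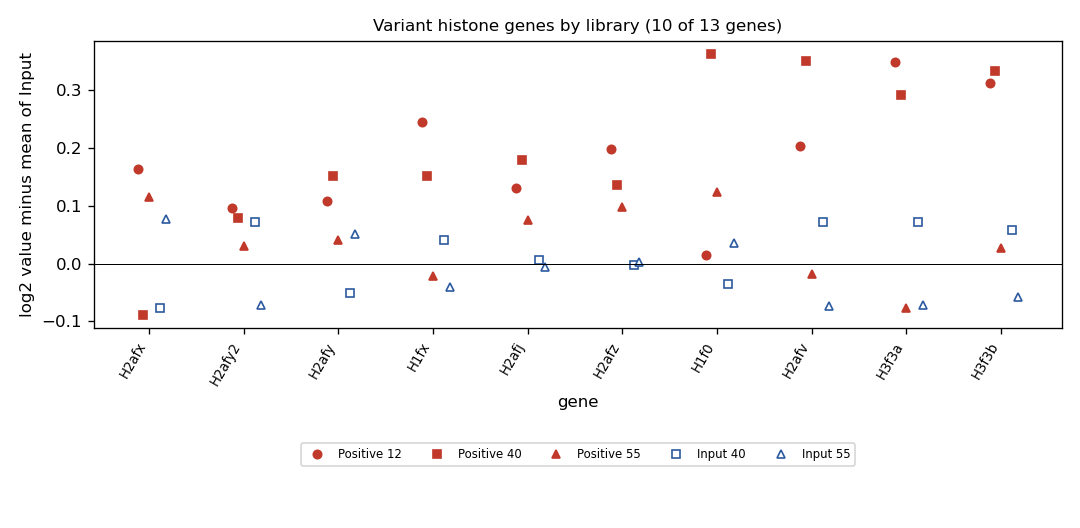
Log2 value minus the mean of the Input libraries (y axis) for 10 variant genes (x axis), with Positive libraries as filled and Input libraries as open symbols and the same shape for the same animal. Positive 12 and Positive 40 lie mostly above the Input values, whereas Positive 55 lies nearer to them, and the fractions separate only in H2afz and H2afj.

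The remaining 3 variant rows were the least precise. H2afb1, a short H2A variant of the male germ line, had log2 values of 3.19, 2.16 and 1.64 in Positive 12, 40 and 55, and 1.71 and 0 in Input 40 and 55, with a log2 fold change of 1.47 (SE 0.69, limma adjusted p = 0.390). It had passed the filter in 1 fraction only, and the gap of 1.71 between its Input values was larger than in 99.2% of genes. After quantile normalization it was 0.75, and leaving out Input 40 or Input 55 gave 2.33 or 0.62. H1foo, the oocyte linker histone gene, had a log2 fold change of 0.0029 (SE 0.35). The pseudogene row H2afy3, at -0.072 (SE 0.54), lies inside the row of the noncoding gene Pvt1. Without these 3 rows the variant median was 0.14, all 10 other genes were positive and their log2 fold changes ran from 0.063 to 0.22.

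Among linker histones of the Hist1 locus values lay on either side of 0, with 1 of 5 positive and a median of -0.23. Hist1h1c, which encodes the H1c of rods (Entrez gene 50708, chr13:23738807-23740367), had 0.30, 0.44 and 0.17 in Positive 12, 40 and 55, and 0.12 and 0 in Input, with a log2 fold change of 0.24 (SE 0.11, limma adjusted p = 0.384). Each Positive value exceeded both Input values, and after quantile normalization the log2 fold change was 0.079. Hist1h1e, another H1 of many adult tissues, was at -0.027 (SE 0.14), with its Input values inside the range of its Positive values.

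Hist1h1a (Entrez gene 80838, chr13:23763668-23764414) had -0.64, -0.99 and -0.44 in Positive 12, 40 and 55, and 0 and -0.32 in Input, with a log2 fold change of -0.53 (SE 0.20, limma adjusted p = 0.350). Each Positive library lay below both Input libraries. Hist1h1d had -0.47, -0.93 and -1.05 in Positive and 0 and -0.48 in Input, with a log2 fold change of -0.57 (SE 0.24, limma adjusted p = 0.361), and only Positive 12 reached above Input 55. After quantile normalization Hist1h1a was -0.32 and Hist1h1d -0.36, and Hist1h1d was -0.34 without Input 40. Neither Hist1h1a (0%) nor Hist1h1d (2.25%) shared more than a small part of its 50-base stretches with other transcripts.

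The 10 cluster H4 genes lay on either side of 0, and none of them was called. All 10 encode an identical protein of 103 residues, and their log2 fold changes ran from -0.53 to 0.50 with 5 above and 5 below 0. Hist4h4, the single member of its locus (Entrez gene 320332, chr6:136801553-136804431), had 0.54, 0.29 and 0.25 in Positive 12, 40 and 55, and 0 and -0.27 in Input 40 and 55. Its log2 fold change was 0.50, or 1.41-fold (SE 0.14, limma unadjusted p = 0.0178, adjusted p = 0.331), and its Positive values were all higher than its Input values. Hist2h4 (Entrez gene 97122, chr3:96262970-96263317) had -0.49, -0.67 and -0.51 in Positive, and 0 and -0.27 in Input, with a difference of -0.42 (SE 0.12, limma adjusted p = 0.331). There all Positive values lay below both Input values, and the log2 fold change ran from -0.55 to -0.23 over the 13 settings tried.

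Among the other H4 genes, Hist1h4j had a log2 fold change of -0.53 (SE 0.28) with Positive 12 between its Input values. Hist1h4a, Hist1h4b and Hist1h4d had SE of 0.62 to 0.79 and had passed the filter in 1 fraction only. Hist1h4a, at 0.32, had the largest gap between Input libraries of all members, at 2.00, which exceeded that of 99.5% of genes. Hist4h4 and Hist2h4 shared 8.52% and 1.01% of the 50-base stretches of their annotated transcripts with those of other genes. These shares describe the annotation and not how reads were assigned. The deposited row of Hist2h4 spans 348 bases, against 1630 in its annotated transcript. Most of the sequence behind the share of Hist2h4 thus lies outside its row. In Hist4h4 the row spans 2879 bases, against 2863 in the transcript. The difference between the genes was not tested.

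The promoter window of Hist4h4, 300 bases around the start, is shown because this gene had the smallest unadjusted p among the higher members (RefSeq, GRCm38.p6, chr6:136804382-136804681, minus strand). It holds neither CCAAT nor TATAAA on either strand, so no capitals are set.
Hist4h4 promoter: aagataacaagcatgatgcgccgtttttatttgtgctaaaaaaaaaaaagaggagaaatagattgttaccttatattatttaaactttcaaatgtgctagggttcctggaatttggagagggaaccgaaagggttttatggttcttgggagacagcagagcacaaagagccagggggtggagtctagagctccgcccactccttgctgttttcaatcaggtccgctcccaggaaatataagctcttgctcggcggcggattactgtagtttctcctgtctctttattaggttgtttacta
Such windows were found for 54 of the 62 members. CCAAT, read on both strands, was present in 37 of 43 cluster windows and 7 of 11 variant windows (63.6%), against 37.9% of all 27025 windows. TATAAA was present in 25 of 43 (58.1%) and 1 of 11 (9.09%), against 14.2% of all. A match is a string of letters and not a shown binding site.

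**Figure D3:**
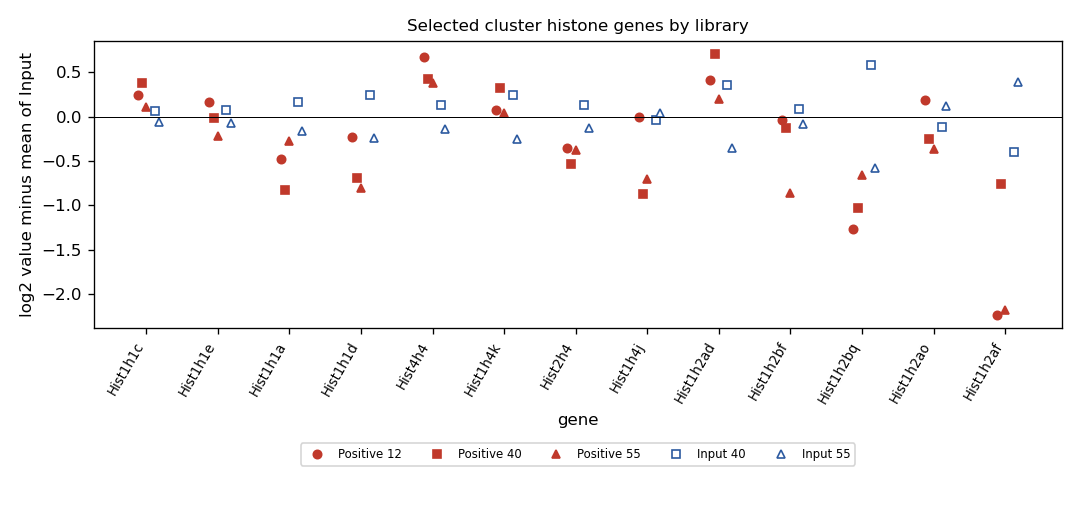
Log2 value minus the mean of the Input libraries (y axis) for 13 selected cluster genes (x axis), with filled Positive and open Input symbols and the same shape for the same animal. Hist4h4 and Hist1h1c lie above and Hist2h4 and Hist1h1a below both Input libraries in all 3 Positive libraries, and Positive 12 and Positive 55 of Hist1h2af lie farthest below.

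H2A and H2B genes of the clusters are often paired head to head around a shared promoter, and 7 such pairs with under 500 bases between them were among the members. No partner passed the test. The pair with the clearest opposite signs was Hist1h2bf, at -0.34 (SE 0.28), and Hist1h2ad, at 0.44 (SE 0.27), 280 bases apart. Hist1h2ad had 0.77, 1.06 and 0.56 in Positive 12, 40 and 55, and 0.72 and 0 in Input, so Input 40 lay above Positive 55. Hist1h2bf had -0.12, -0.22 and -0.95 in Positive and 0 and -0.17 in Input, and its groups overlapped too. Hist1h2ad was 0.0075 after quantile normalization, 0.079 without Input 55 and 0.80 without Input 40, so its distance from 0 rests on Input 55 and on the scaling. The window upstream of Hist1h2ad, which reaches into the 5′ end of Hist1h2bf, is shown with CCAAT on either strand and TATAAA in capitals (RefSeq, GRCm38.p6, chr13:23574131-23574430, plus strand).
Hist1h2ad promoter: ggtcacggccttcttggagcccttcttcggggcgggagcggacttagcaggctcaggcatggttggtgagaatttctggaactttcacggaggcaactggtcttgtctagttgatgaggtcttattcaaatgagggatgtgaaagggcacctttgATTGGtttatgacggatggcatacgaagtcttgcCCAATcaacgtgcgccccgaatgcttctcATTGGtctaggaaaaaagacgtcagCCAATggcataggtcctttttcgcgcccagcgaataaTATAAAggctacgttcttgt

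The other pairs gave differences of 0.0024 to 0.84. Hist2h2ac and Hist2h2be had nearly the same log2 fold change, at 0.0098 (SE 0.29) and 0.012 (SE 0.087). The widest difference was between Hist1h2bq, at -0.98 (SE 0.39), and Hist1h2ao, at -0.14 (SE 0.20). Hist1h2bq had -1.84, -1.60 and -1.24 in Positive 12, 40 and 55, and 0 and -1.16 in Input 40 and 55, so its Positive libraries lay below both Input libraries, though Positive 55 only just. It shared 97.3% of its 50-base stretches with other transcripts, and its reads are therefore uncertain. Its log2 fold change was -0.41 without Input 40 and -1.56 without Input 55.

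Of the 15 cluster H2A genes 10 had a negative log2 fold change and of the 12 H2B genes 9 did, with medians of -0.067 and -0.12. Hist1h2af had the lowest value of all members, with -1.85, -0.36 and -1.79 in Positive 12, 40 and 55, and 0 and 0.79 in Input, a difference of -1.73 (SE 0.55, limma adjusted p = 0.331). All Positive values lay below both Input values, but the row had passed the filter in 1 fraction only, which favours rows that differ, and 94.0% of its 50-base stretches occurred in other transcripts. Hist1h2bq, described above, was next, and Hist1h2bl at -0.57 (SE 0.43) and Hist1h2ak (passed in 1 fraction only) at -0.55 (SE 0.31) had overlapping groups. Without Input 40 they were -0.15 and -0.83, and without Input 55 -0.99 and -0.27. Hist1h2ak was -0.30 without Positive 12, and Hist1h2bl was -0.24 without Positive 55. At the upper end Hist1h2ac had 0.17 (SE 0.19), Hist3h2ba 0.15 (SE 0.10) and Hist1h2bg 0.015 (SE 0.11), also overlapping.

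Of the 7 cluster H3 genes 5 were negative, with a median of -0.098. Hist1h3a had the highest log2 fold change of the cluster genes, 0.82 (SE 0.42, limma adjusted p = 0.409), with 1.43, 1.56 and 1.58 in Positive 12, 40 and 55, and 1.40 and 0 in Input 40 and 55. Its Positive values lay close together and just above Input 40, and Input 55 alone was low. Without Input 55 its log2 fold change was 0.12, without Input 40 it was 1.52, and after quantile normalization it was 0.27. Hist1h3i had 0.15 (SE 0.61), Hist1h3f -0.28 (SE 0.61) and Hist1h3g -0.43 (SE 0.37), the last at -0.76 without Positive 12 and -0.16 without Positive 40. These 4 H3 genes had passed the filter in 1 fraction only.

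By locus, the 37 genes of Hist1 on chromosome 13 (mm10 chr13:21715763-23764414) had a median of -0.19 with 27 negative, and the 8 genes of Hist2 on chromosome 3 had a median of -0.048 with 5 negative. The 3 genes of Hist3 on chromosome 11 had a median of 0.11. All 13 cluster genes that had passed in 1 fraction lie in Hist1. They had a median of -0.40, and the 36 cluster genes that had passed in both had -0.050, against -0.014 for all genes that had passed in both. The 12 variants that had passed in both had a median of 0.13.

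**Figure D4:**
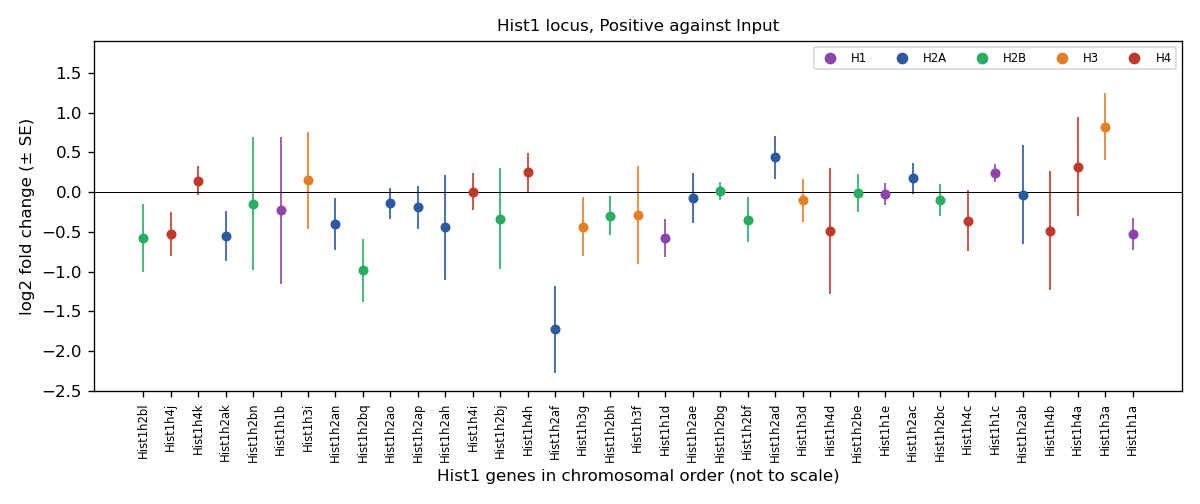
Log2 fold change of Positive minus Input with limma's SE as bars (y axis) for the 37 Hist1 genes in their order along chromosome 13 (x axis, not to scale), coloured by histone family. Values below 0 are spread along the whole locus and in every family, and neighbours such as Hist1h2bf and Hist1h2ad lie on either side of 0.

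Cluster genes were measured with less precision than most genes. Their median SE was 0.27 against 0.11 over all genes, and it exceeded the median of all genes in 45 of 49. The gap between the Input libraries had a median of 0.30 in cluster genes, 0.14 in variant genes and 0.12 over all genes. In 21 of 48 cluster genes with an annotated coding sequence the deposited row spans exactly the coding length, so that the stem-loop and any longer 3′ end are outside the row. These 21 had a median log2 fold change of -0.33 and a median SE of 0.38, whereas the other 27 had -0.027 and 0.20. Of the 49 cluster genes 23 shared 50% or more of their 50-base stretches with other transcripts, and their median was -0.15, against -0.025 in the other 26. The part of row length and shared sequence in the class difference was not tested.

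**Figure D5:**
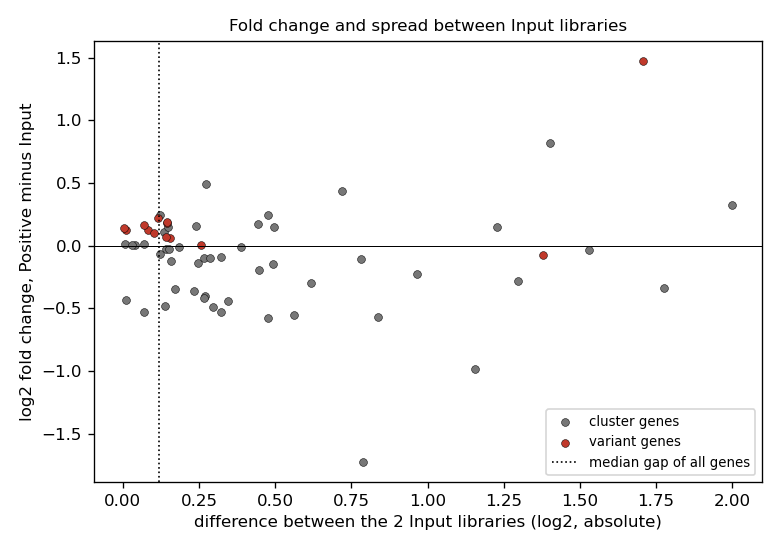
Absolute difference between the 2 Input libraries on the log2 scale (x axis) and log2 fold change (y axis) for cluster genes (grey) and variant genes (red), with the median gap over all genes as a dotted line. Cluster genes reach gaps of 2.00 and lie on either side of 0, and 10 of the 13 variant genes lie just above 0 at gaps of at most 0.154.

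The machinery of cluster gene expression gave no call in limma either. Of 26 measured genes for histone mRNA processing 11 had all Positive libraries below both Input libraries (42.3%, against 21.8% of all genes) and 5 above (19.2%, against 16.7%), with a median log2 fold change of -0.086. Lsm10, a subunit of the U7 particle that cuts histone pre-mRNA, had 0.50 (SE 0.14, limma adjusted p = 0.331), with 0.61, 0.40 and 0.24 in Positive and 0 and -0.17 in Input. Zfp473, whose product links the stem-loop complex to U7, had 0.51 (SE 0.15), with 0.57, 0.59 and 0.19 in Positive and 0 and -0.11 in Input. Both genes had Positive values over both Input values throughout. Gon4l had -0.26 (SE 0.098) and the Sm-ring gene Snrpf -0.27 (SE 0.29), and Slbp itself, chosen after its values were seen, had 0.069 (SE 0.085).

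Of 29 histone chaperones and exchange factors 9 lay below (31.0%, against 21.8% of all genes) and 5 above both Input libraries (17.2%, against 16.7%) in all Positive libraries, with a median of -0.054. Asf1b, a chaperone of H3 and H4, had 0.31 (SE 0.23) and the nucleolar chaperone gene Npm1 0.29 (SE 0.13). Tonsl and Mms22l, whose products form a complex that binds H4 behind replication forks, had -0.41 (SE 0.15) and -0.40 (SE 0.26). The H3.3 chaperone genes Hira and Daxx had -0.081 (SE 0.099) and -0.028 (SE 0.072), and were also chosen after their values were seen. After quantile normalization Npm1 was 0.044, Tonsl -0.23 and Mms22l -0.23. Npm1 was 0.16 without Input 55, and Mms22l was -0.63 without Positive 40 and -0.24 without Positive 55 or Input 40. Only Tonsl of these had non-overlapping groups, with all Positive libraries below.

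Of 39 measured genes of S phase and proliferation 6 lay above (15.4%, against 16.7% of all genes) and 4 below both Input libraries (10.3%, against 21.8%) in all Positive libraries, with a median of 0.022. Ccnb1 had 0.67 (SE 0.44) and Mcm3 0.39 (SE 0.59), and Bub1 had -0.53 (SE 0.34) and Cdk1 -1.05 (SE 0.97), all with overlapping groups. Bub1 and Cdk1 had passed the filter in 1 fraction only. Cdk1 had the same value, -2.056, in Positive 40 and Positive 55, so its values may be limited at the low end. Leaving out Positive 12, Input 40 or Input 55 in turn, Ccnb1 was 0.40, 1.23 and 0.12. Bub1 was -0.34, -0.97 and -0.080 in the same order, and Cdk1 was -2.002 without Positive 12 and -0.58 without Positive 40 or 55. Of 18 partners in chromatin architecture 2 lay above (11.1%, against 16.7%) and 2 below (11.1%, against 21.8%), with a median of 0.019. The nucleosome-binding gene Hmgn5 had 0.40 (SE 0.20) and Hmgb1 0.30 (SE 0.14), with no overlap in Hmgb1, while Hmga2 had -0.29 (SE 0.16) and -0.12 after quantile normalization.

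In the same libraries all 20 markers of Müller glia were positive (median 0.44), and in 19 of them the fractions did not overlap. Rod markers had a median of 0.036 over 15 genes, cones -0.060 over 10, bipolar cells -0.11 over 12, amacrine cells -0.037 over 10 and ganglion cells 0.25 over 11. Non-neuronal cells had medians of 0.56 for endothelium (11 genes), 0.65 for pigment epithelium (9), 0.66 for retinal astrocytes (8) and 0.22 for microglia (11). All Positive libraries also lay above both Input libraries in 9 endothelial (81.8%), 6 pigment epithelial (66.7%), 5 astrocyte (62.5%) and 5 ganglion cell markers (45.5%). They did so in 3 microglial (27.3%) and 1 amacrine markers (10.0%), again against 16.7% of all genes. They all lay below both in 6 bipolar, 3 cone, 3 amacrine, 1 rod and 1 microglial markers, against 21.8% of all genes. The part of these cell types in the values of the histone genes was not tested.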

How the data were processed

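The authors deposited 1 table of log2 values, relative to an Input level of each gene, for the 5 libraries, with 16423 rows. The log scale was read from the values. Per the file headers, rows needed a raw value of at least 5 in every library of 1 fraction or both, on RefSeq gene models. The build mm10 and the tool DESeq are named in the submitters' processing notes. Aligner, counter and use of strand: not given in the sources used here. Whether poly(A) RNA was selected for the libraries was not considered, and its part in the values of cluster genes was not tested. The deposited column of conditions passed (1 or 2, a count of conditions) was used as it stands. Depth is unknown. No column of other samples was present.

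Fractions were compared by limma 3.58.1 in R 4.3.3 (empirical Bayes without a trend, 3 residual degrees of freedom, two-sided). Then p-values were adjusted by Benjamini and Hochberg's method across the 16422 genes left after keeping a single row for each symbol, at a threshold of 0.05. The code was tested on simulated data. An exact permutation of 3 against 2 libraries has a smallest possible p of 0.1 and was not run. Animals are named in the labels, so replicates are separate animals and libraries of animals 40 and 55 are paired by animal; across genes their deviations from the fraction means correlated at r = 0.174 and 0.195. Alternatives were the animal as a fixed or random block (consensus correlation 0.514), quantile normalization, median centring, a variance trend, a robust prior, the filter in both fractions, and leaving out each library.

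Stem-loops, coding lengths, translated proteins (compared only for identity) and the share of 50-base stretches found in transcripts of other genes, on either strand, came from GENCODE vM21 (GRCm38); all 62 members matched it and overlapped their RefSeq genes of GRCm38. The stem-loop was searched by its consensus on the sense strand. Motifs in promoters were searched on both strands in the first window of each gene.

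The members, gene lists and tests were chosen with earlier results of these data known. Named were every variant gene, the 2 highest and 2 lowest cluster genes of each family, and the 2 highest and 2 lowest genes of each of 4 pathway lists; others were named after their values were seen. A gene that the rule names is not reported here. Cell type markers were used as counts and medians.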

Additional observations from a re-analysis of the deposited data

How the results depend on the processing

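The count of genes called over the whole table was 0 in every fit but the random replicate block, which called 11 (4 higher, 7 lower) and no histone gene; the fixed replicate block called 0. Neither block changed a call among the members. The unadjusted count of 2334 was 4305 with the random block, 1264 after quantile normalization and 930 to 3188 with a library left out. The difference of the cluster and variant medians (-0.23) was -0.18 over genes that had passed in both fractions and -0.37 to -0.11 with a library left out. The cluster median (-0.10) was -0.24 to 0.030 with a library left out. Under the other settings the class medians and their difference moved by less than their SD over the 3 Positive libraries. That SD was 0.14 for the cluster median, 0.13 for the variant median and 0.028 for the difference. It holds no variation between Input libraries, and for each class median it is as large as the median itself, so it is a loose measure. After quantile normalization the cluster median was -0.15 and the variant median 0.083. The other settings included leaving out the germline and pseudogene rows (chosen after the data were seen) and 1 value per protein. They also included Hist3h2a, Hist3h2ba, Hist4h4, H2afx and H2afj left out or moved to the other class. The cause of these shifts was not tested, except that a library left out changes the samples compared.

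Among 49 named genes 15 changed direction under some of the 12 other fits, and none was called in any of them. After quantile normalization the reversed values were H1foo -0.18, H2afy2 -0.061, H2afy3 0.22, Hist1h2bg -0.037, Hist3h2ba -0.050, Hist1h3f 0.055, Hist1h3i -0.26 and Asf1b -0.070. With the fixed replicate block they were H2afy3 0.11, Hist1h2bg -0.067 and Hist1h4d 0.23, and with the random replicate block H2afy3 0.021 and Hist1h2bg -0.027. The ranges with a library left out were H1foo -0.32 to 0.22, H2afx -0.014 to 0.14, H2afy2 -0.0027 to 0.14, H2afy3 -0.76 to 0.62, Hist1h1e -0.12 to 0.071, Hist1h2ac -0.048 to 0.40, Hist1h2bg -0.067 to 0.077, Hist1h3f -0.93 to 0.37, Hist1h3i -0.47 to 0.76, Hist1h4d -1.08 to 0.23, Hist1h4a -0.68 to 1.32, Snrpf -0.56 to 0.024, Asf1b -0.014 to 0.64 and Mcm3 -0.029 to 0.91. Where 1 Input library remained, it was assumed to vary like the Positive libraries. The fixed block takes no part of its estimate from Positive 12, which has no partner. Depth is unknown, so its effect on precision cannot be given.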
